A study of Daphnia magna with 335 samples.

Results

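cis-Nonachlordane at its 3 lowest concentrations comprised 9 of the 335 TempO-Seq libraries of the series: 3 pools each at 0.021, 0.067 and 0.212 µM, chosen as the 3 lowest levels of its dilution series. The study exposed whole Daphnia magna, a freshwater crustacean used in toxicity testing, for 24 h to 12 chemicals at 8 half-log concentrations each, and sequenced 1 library per pool of 5 animals. The 9 pools were set against the 6 DMSO solvent pools of the same exposure, of which 3 carried the label CON and 3 the label XtraC; the labels do not say how they differ. The treated wells held DMSO as well, never above 0.34%, so each comparison is cis-nonachlordane in DMSO against DMSO alone. Other references were the 3 pools at 0.669 µM, the next concentration up, and the 9 pools at the 3 lowest concentrations of fexofenadine (0.0108, 0.034 and 0.108 µM), the other chemical of the same exposure. Nominal concentrations are given throughout. The replicate letters A, B and C name separate pools of animals. The p-values set each difference against the spread between pools, estimated over all pools in the fit.

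cis-Nonachlordane is a constituent of technical chlordane, an organochlorine insecticide of the cyclodiene type. Cyclodienes are known to block the chloride channel of the GABA receptor in arthropod nerve cells, and chlordane constituents are lipophilic and persistent in water and sediment. TempO-Seq counts ligated pairs of detector oligos, so each value is the count of 1 probe, and levels of different probes cannot be compared. The table held 2378 probes, named by a gene identifier and a probe number. None of these identifiers matched the RefSeq gene table at hand, so the probes are given by identifier, with no gene name or function. In pools of whole animals, fewer cells of a type and less RNA per cell cannot be told apart.

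The 9 libraries at the low concentrations held 412739 to 639531 counts, with a median of 529674, and the 6 DMSO libraries held 293743 to 652798, with a median of 551300. The mean total was 8107 counts higher in the treated pools, a difference that did not pass an exact two-sided permutation test over all 5005 arrangements (p = 0.883). No libraries of the series were identical, and log2 CPM correlated at 0.915 to 0.983 among these 15. Between the XtraC and the CON pools 0 probes were called by edgeR's quasi-likelihood test, with 25 of 1424 at an unadjusted p under 0.05.

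Few probes passed the test against DMSO at the 3 lowest concentrations. A probe was called where its p in the edgeR quasi-likelihood test, after Benjamini-Hochberg adjustment over all 1424 probes tested, was under 0.05. At 0.021 µM 6 probes were higher and 4 lower than in DMSO, 0.702% of those tested, and 205 had an unadjusted p under 0.05. At 0.067 µM 0 probes were called, with 85 at an unadjusted p under 0.05 and none called by DESeq2 or limma, and the smallest adjusted p from edgeR's quasi-likelihood test was 0.3. At 0.212 µM 2 probes were higher and 0 lower, 0.14% of those tested, with 64 at an unadjusted p under 0.05. At 0.669 µM, by contrast, 40 probes were higher and 20 lower, 4.21% of those tested, with 229 at an unadjusted p under 0.05. The number of unadjusted p-values under 0.05 at 0.021 µM was thus closer to that at 0.669 µM than to those at the levels between. From 2.113 to 66.67 µM 7.44%, 4%, 7.3% and 3.16% of the probes were called.

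**Figure D1:**
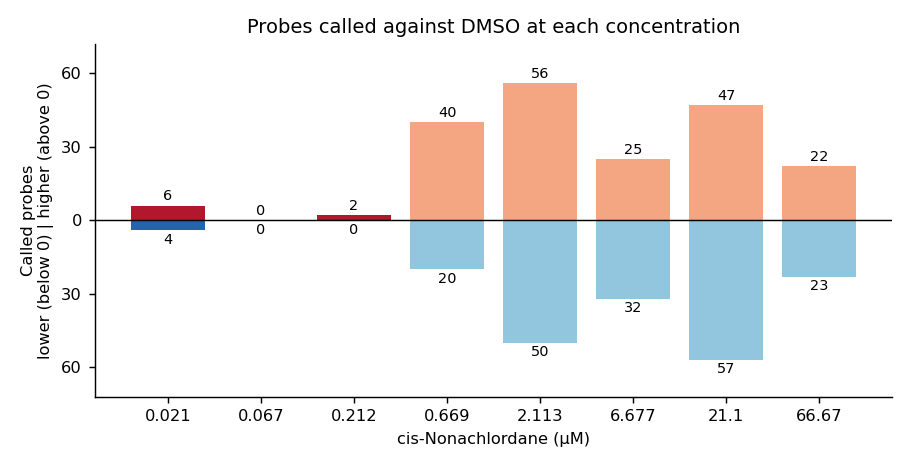
Number of probes called against the 6 DMSO pools at each cis-nonachlordane concentration (µM, low to high; 3 pools each), with higher probes above 0 and lower probes below 0. Dark bars mark the 3 lowest concentrations, with 10, 0 and 2 called probes, and pale bars the 5 highest, with 45 to 106.

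The 10 probes called at 0.021 µM did not include the 2 called at 0.212 µM, and with lists this short nothing is read from that. All levels are compared with the same 6 DMSO pools. With the 9 pools combined, the mean of the 3 levels differed from DMSO at 0 of 1424 probes by edgeR's quasi-likelihood test, with 64 at an unadjusted p under 0.05 and none called by DESeq2 or limma. A joint test of the 3 levels called 9 probes, 0.632% of those tested, with 198 at an unadjusted p under 0.05: 6 of the 10 from 0.021 µM, both from 0.212 µM, and Dapma7bEVm010078_95897.

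The precision sets what these counts can show. The 95% interval of the fold change lay within 2-fold of no change for 77.9% of the 1424 probes at 0.021 µM, 76.5% at 0.067 µM and 77.1% at 0.212 µM, and for 86.4% over the 9 pools together. The median standard error was 0.192, 0.196 and 0.197 on the log2 scale at the 3 levels, low to high. A fold change beyond 2-fold was fitted for 25, 29 and 47 probes at these levels, and most of them were not called, as the plot of fold change against abundance shows.

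**Figure D2:**
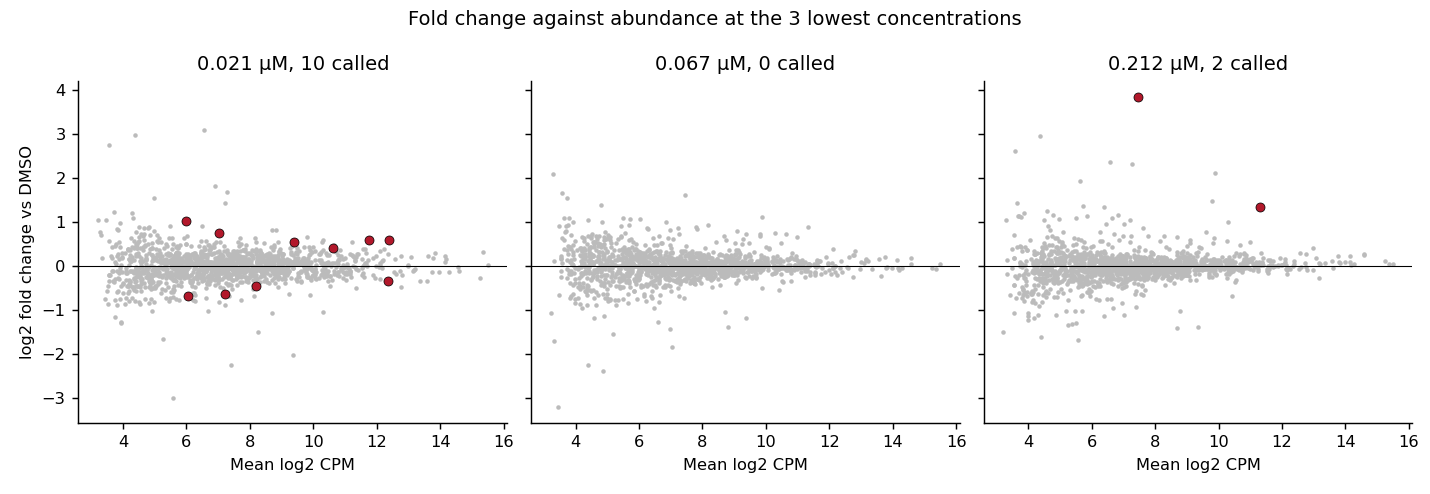
Log2 fold change against DMSO (y axis) of each of the 1424 probes tested, plotted against its mean log2 CPM (x axis), with 1 panel per concentration. Larger red points are the called probes, 10 at 0.021 µM, 0 at 0.067 µM and 2 at 0.212 µM. The uncalled probes spread most at low abundance, and the largest called change is that of Dapma7bEVm001285_98069 at 0.212 µM.

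Dapma7bEVm001285_98069 was the probe with the largest called change. In CPM scaled by TMM, the DMSO pools stood at 12.9, 11.6 and 10.7 (CON A, B and C) and 10.4, 11.04 and 17.5 (XtraC A, B and C). Pools A, B and C stood at 14.8, 6.74 and 16.7 CPM at 0.021 µM, at 17.98, 86.1 and 13.2 CPM at 0.067 µM, and at 124, 329 and 91.2 CPM at 0.212 µM. At 0.021 µM all 3 pools were at or below the highest DMSO pool. At 0.067 µM pool B stood well above the DMSO pools, pool A just above the highest of them and pool C among them. At 0.212 µM all 3 pools were above every DMSO pool, and the groups did not overlap. These CPM values rest on few counts: 3 to 9 per DMSO pool, and 47, 170 and 47 in pools A, B and C at 0.212 µM.

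The log2 fold change of Dapma7bEVm001285_98069 against DMSO was 0.04 ± 0.93 (SE) at 0.021 µM, 1.61 ± 0.79 at 0.067 µM and 3.86 ± 0.67 at 0.212 µM, which is 14.5-fold. The first 2 were not called, and the third was, with an adjusted p of 0.00798 (edgeR quasi-likelihood test, Benjamini-Hochberg). At 0.669 µM pools A, B and C stood at 305, 209 and 420 CPM, a log2 fold change of 4.63 ± 0.65 against DMSO. The difference between 0.669 and 0.212 µM was 0.77 ± 0.64 on the log2 scale, with a 95% interval from -0.55 to 2.08, and was not called. From 2.113 to 66.67 µM the log2 fold change lay between 3.98 and 4.95. Single pools ranged from 52.5 to 542.8 CPM over those 4 concentrations, and the 3 pools at 0.212 µM lay within that range.

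The same probe also differed between cis-nonachlordane at 0.212 µM and the fexofenadine pools of the same level code. It was the 1 probe called there, 0.0694% of 1440 tested. That comparison used the same 3 pools at 0.212 µM as the call against DMSO, so it is not separate support. It set treated pools against each other, in a fit that also held the DMSO pools. The comparison was added after the data had been seen. There the 24 fexofenadine pools of all levels ranged from 1.69 to 24.6 CPM. The log2 difference was 4.11 ± 0.74 (Benjamini-Hochberg adjusted p = 0.00282, edgeR quasi-likelihood test). The concentrations of the 2 chemicals differ at the same code, 0.212 and 0.108 µM. Leaving out any 1 letter from every group, or using the CON or the XtraC pools alone, ended the call at 0.212 µM against DMSO, while the fitted log2 fold change stayed between 2.99 and 4.30 over 18 alternatives.

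Elsewhere in the series, with CPM scaled over all 335 libraries, Dapma7bEVm001285_98069 stood at 85.9, 117 and 316 CPM in the 3 pools at 0.212 µM. The 30 DMSO pools of the other 5 exposures ranged from 1.65 to 55.7 CPM, with a median of 10.3. All 3 pools at 0.212 µM were above all 36 DMSO pools. Pools of other chemicals reached higher values than 2 of these 3: up to 235.8 CPM with 3,4-Dichlorophenyl isocyanate, 221 CPM with Metribuzin-DA, 197 CPM with Fipronil amide and 153 CPM with 2-tert-Butyl-4-methoxyphenol, each the highest of all levels of that chemical.

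Dapma7bEVm001964_97694, the second probe called at 0.212 µM, was higher there and lower at every concentration above. In DMSO it stood at 3320, 2057 and 3016 CPM (CON A, B and C) and 3862, 3422 and 3443 CPM (XtraC A, B and C). Pools A, B and C stood at 5084, 2695 and 2727 CPM at 0.021 µM, 5185, 8478 and 4132 CPM at 0.067 µM, 6692, 5607 and 11920 CPM at 0.212 µM, and 1205, 557 and 553 CPM at 0.669 µM. All 6 pools at 0.067 and 0.212 µM were above every DMSO pool, as was pool A at 0.021 µM, and all 3 pools at 0.669 µM were below every DMSO pool.

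The log2 fold change of Dapma7bEVm001964_97694 against DMSO was 0.14 ± 0.29 at 0.021 µM, 0.90 ± 0.28 at 0.067 µM, 1.34 ± 0.28 at 0.212 µM and -2.04 ± 0.32 at 0.669 µM. Of these 4 the third and the fourth were called, with adjusted p of 0.0459 and 0.000475 (edgeR quasi-likelihood test, Benjamini-Hochberg). From 2.113 to 66.67 µM it lay between -4.26 and -3.88, at 141 to 304 CPM in single pools. Between neighbouring concentrations, the pools at 0.669 µM were lower than those at 0.212 µM, with a log2 difference of -3.38 ± 0.37 (Benjamini-Hochberg adjusted p = 2.79e-06, edgeR quasi-likelihood test).

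The rise of Dapma7bEVm001964_97694 at 0.212 µM depended on the setting. Of 18 alternatives 4 kept the call, with log2 fold changes of 0.96 to 1.55 over all of them, and leaving out any single DMSO pool or any letter ended it. Against the fexofenadine pools of the same level code the log2 difference was 1.41 ± 0.39 and was not called (Benjamini-Hochberg adjusted p = 0.238, edgeR quasi-likelihood test). The 24 fexofenadine pools ranged from 1958 to 6617 CPM. Scaled over all libraries, the pools at 0.212 µM stood at 5388, 6313 and 11220 CPM, and the 30 DMSO pools of the other exposures at 468 to 6380 CPM, so 2 of the 3 pools lay inside that range. The DMSO level of this probe differed between exposures, with medians of 722 to 4480 CPM.

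**Figure D3:**
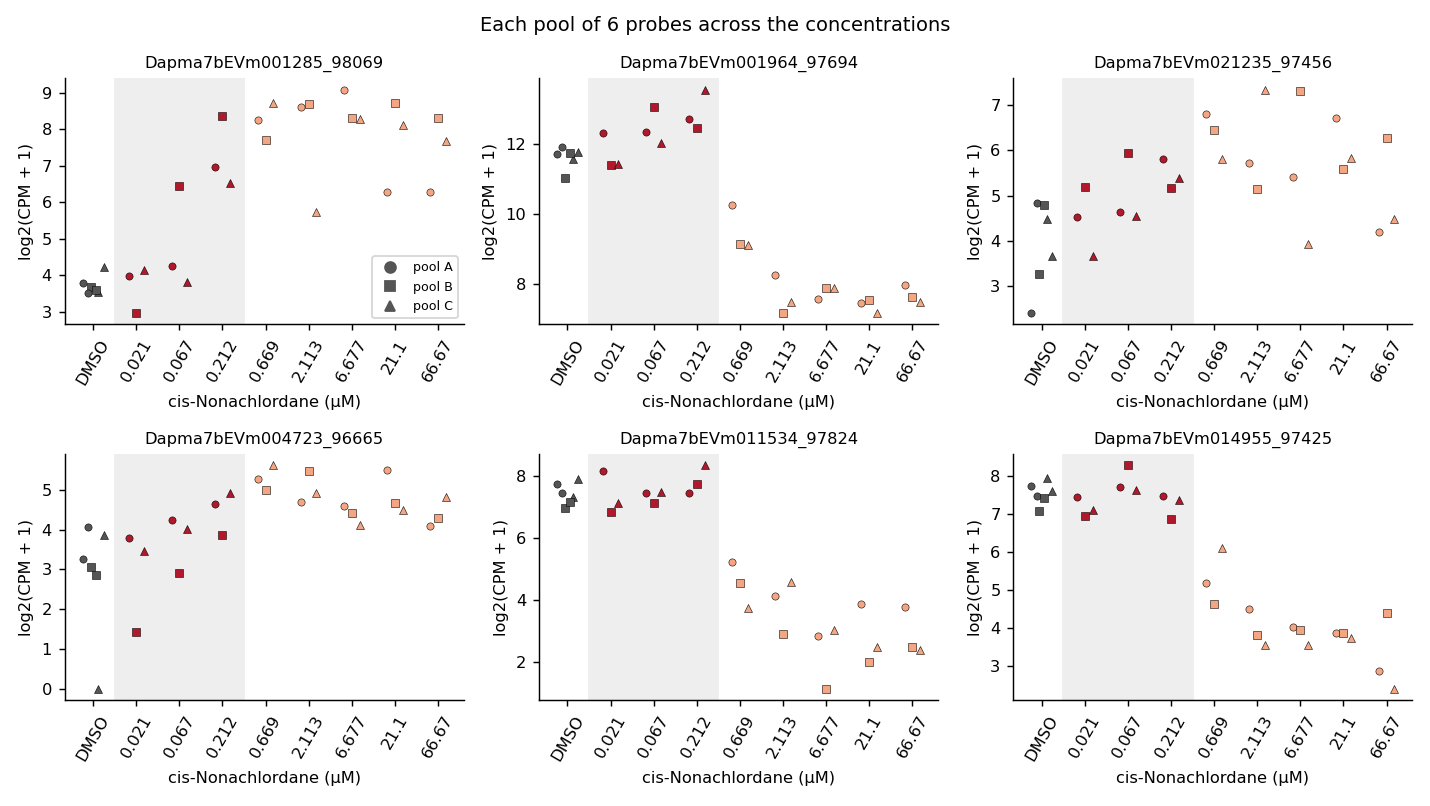
Each pool of 6 probes as log2(CPM + 1) (y axis) in the 6 DMSO pools and at the 8 cis-nonachlordane concentrations (x axis, µM, low to high; 3 pools each; marker shapes give the letters). The shaded band marks the 3 lowest concentrations. Dapma7bEVm001285_98069 is above DMSO in all 3 pools from 0.212 µM up, Dapma7bEVm001964_97694 is above DMSO at 0.067 and 0.212 µM and below it from 0.669 µM up, and Dapma7bEVm011534_97824 and Dapma7bEVm014955_97425 are below DMSO in all pools from 0.669 µM up.

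The 10 probes called at 0.021 µM changed by little. Their log2 fold changes were 0.41 to 1.04 in the 6 higher probes and -0.68 to -0.33 in the 4 lower ones, and at 0.067 and 0.212 µM 0 of the 10 were called. Pools B and C lay outside the range of the 6 DMSO pools for 10 of 10 probes and pool A for 7 of 10. These counts follow largely from the choice of the probes, which were called on these same pools. Over all 1424 probes tested, 26.1%, 37.6% and 41.6% lay outside that range in either direction in pools A, B and C.

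Dapma7bEVm006440_97717 had the largest change of these. At 0.021 µM pools A, B and C stood at 64.6, 113 and 113 CPM, against 34.4, 55.3, 39.1, 62.5, 55.2 and 33.1 CPM in the 6 DMSO pools. All 3 treated pools were above DMSO, pool A by little. The log2 fold change was 1.04 ± 0.20, with an adjusted p of 0.0279 (edgeR quasi-likelihood test, Benjamini-Hochberg). The counts behind these values were 35, 67 and 68 in the treated pools and 11 to 38 in the DMSO pools. At 0.067 and 0.212 µM the log2 fold change of Dapma7bEVm006440_97717 was 0.22 and 0.17.

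Dapma7bEVm027994_96188 stood at 168, 217 and 232 CPM in pools A, B and C at 0.021 µM, against 107 to 135 CPM in the DMSO pools, a log2 fold change of 0.76 ± 0.18. Dapma7bEVm010193_97486 stood at 1802, 2049 and 2047 CPM, against 1319 to 1742 CPM in DMSO, a log2 fold change of 0.41 ± 0.09. In both probes the groups did not overlap. A second probe of the same gene identifier, Dapma7bEVm010193_97186, had a log2 fold change of 0.37 ± 0.10 and was not called.

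In the other 3 higher probes pool A stood apart from pools B and C. Dapma7bEVm002026_95902 was at 4848, 8207 and 8917 CPM in pools A, B and C at 0.021 µM, against 4303 to 5254 CPM in DMSO, a log2 fold change of 0.60 ± 0.13. Dapma7bEVm004770_97806 was at 2990, 5009 and 5554 CPM, against 2543 to 3239 CPM in DMSO. Dapma7bEVm015365_96537 was at 631, 974 and 1105 CPM, against 529 to 704 CPM in DMSO. In each of these probes pool A lay within the DMSO range. The 2 further probes of the gene identifier of Dapma7bEVm002026_95902 were not called, with log2 fold changes of 0.29 ± 0.10 (Dapma7bEVm002026_96198) and 0.23 ± 0.09 (Dapma7bEVm002026_96895).

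The 4 lower probes were below every DMSO pool in all 3 pools at 0.021 µM. Dapma7bEVm006182_95981 stood at 129, 97.8 and 90.0 CPM in pools A, B and C, against 147 to 193 CPM in DMSO, a log2 fold change of -0.64 ± 0.13. Dapma7bEVm004554_97841 stood at 42.4, 45.5 and 40.0 CPM, against 62.5 to 75.7 CPM in DMSO, a log2 fold change of -0.68 ± 0.16. Dapma7bEVm005521_97376 stood at 251, 223 and 190 CPM, against 281 to 339 CPM in DMSO, a log2 fold change of -0.45 ± 0.10. Of these Dapma7bEVm004554_97841 was also lower at 0.067 µM by value, with 45.9, 60.3 and 45.1 CPM and a log2 fold change of -0.44 ± 0.17, and was not called there.

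Dapma7bEVm000646_96431 was the 1 probe called both at 0.021 and at 0.669 µM. It stood at 5277 to 6511 CPM in DMSO, at 4553, 4779 and 4670 CPM in pools A, B and C at 0.021 µM, at 6617, 6442 and 6104 CPM at 0.067 µM, at 6547, 6639 and 6043 CPM at 0.212 µM, and at 4488, 4132 and 4655 CPM at 0.669 µM. The pools at 0.021 and 0.669 µM were below every DMSO pool and those between were not. Its log2 fold change against DMSO was -0.33 ± 0.08, 0.12 ± 0.08, 0.13 ± 0.08 and -0.41 ± 0.08, in order of concentration.

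**Figure D4:**
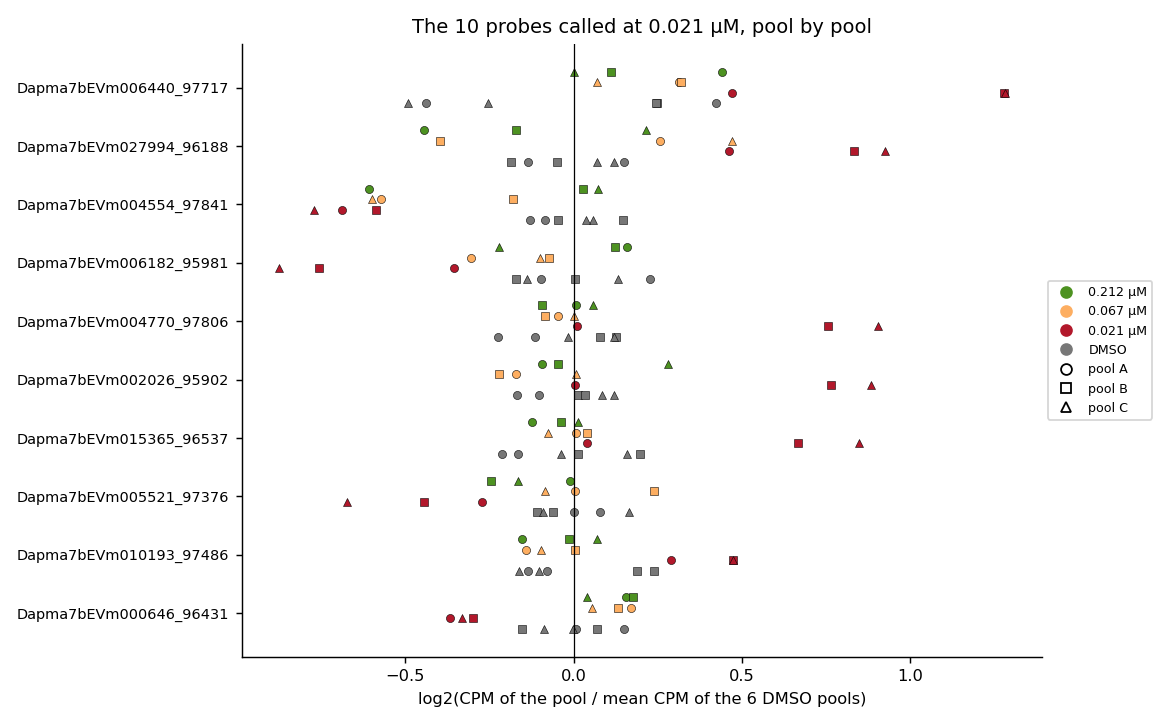
The 10 probes called at 0.021 µM (y axis), with each pool as the log2 ratio of its CPM to the mean CPM of the 6 DMSO pools (x axis); colours give the concentration and marker shapes the letter. Pools B and C at 0.021 µM stand outside the DMSO pools for all 10 probes and pool A for 7, while the pools at 0.067 and 0.212 µM mostly lie among the DMSO pools. The probes were chosen by the difference between these 0.021 µM pools and these DMSO pools.

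The calls at 0.021 µM depended on which pools were included. Leaving a letter out of every group also left fewer pools in the test. Leaving out letter B or letter C from every group gave 0 called probes by edgeR's quasi-likelihood test, with 149 and 79 at an unadjusted p under 0.05, and leaving out letter A gave 9. Leaving out 1 DMSO pool gave 0 without CON A or XtraC C, 2 without XtraC A, 3 without XtraC B, 6 without CON C and 9 without CON B. DESeq2 called 25 probes with all pools, of which 5 were among the 10. Over the alternatives with a value, the log2 fold change of each of the 10 kept its sign. The largest, of Dapma7bEVm006440_97717, lay between 0.77 and 1.26. The smallest, of Dapma7bEVm000646_96431, lay between -0.39 and -0.14. Pools B and C at 0.021 µM also had more probes outside the range of the 6 DMSO pools than pool A, 37.6% and 41.6% of 1424 against 26.1%. The other 6 low-concentration pools lay at 25.0% to 41.4%, and the 9 low fexofenadine pools at 20.6% to 32.0%. What share of the calls these 2 pools account for was not tested beyond leaving out their letters.

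Comparisons among the low levels set treated pools against each other, in the fit that also held the DMSO pools. The pools at 0.067 µM differed from those at 0.021 µM at 8 probes (3 higher, 5 lower, 0.562% of those tested), with 256 at an unadjusted p under 0.05. The pools at 0.212 µM differed from those at 0.021 µM at 7 probes (5 higher, 2 lower, 0.492%), with 216 at an unadjusted p under 0.05, in a comparison added after the data had been seen. Both counts were 0 without letter B, without letter C, without the filter on low counts or with only the pools from 0.021 to 0.669 µM in the fit, and were 24 and 22 without letter A. Between 0.212 and 0.067 µM 0 probes were called, with 61 at an unadjusted p under 0.05 and none called by DESeq2. Both lists share the 0.021 µM pools with the calls against DMSO. Of the 10 probes called against DMSO, 4 were also called between 0.067 and 0.021 µM. There Dapma7bEVm002026_95902 and Dapma7bEVm010193_97486 were lower at 0.067 µM, with log2 differences of -0.73 ± 0.15 and -0.49 ± 0.11. Dapma7bEVm005521_97376 and Dapma7bEVm000646_96431 were higher at 0.067 µM, by 0.51 ± 0.12 and 0.45 ± 0.09. Between 0.212 and 0.021 µM 3 of the 10 were called. Dapma7bEVm006182_95981 and Dapma7bEVm000646_96431 were higher at 0.212 µM, by 0.67 ± 0.15 and 0.46 ± 0.09, and Dapma7bEVm015365_96537 was lower, with -0.61 ± 0.14. Dapma7bEVm001285_98069, not among the 10, was higher at 0.212 than at 0.021 µM by 3.82 ± 0.84 (Benjamini-Hochberg adjusted p = 0.0358, edgeR quasi-likelihood test). That difference used the same pools at 0.212 µM as the call of this probe against DMSO.

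Against DMSO at the low levels, Dapma7bEVm010078_95897 was called only in the joint test, with an adjusted p of 0.0423 (edgeR quasi-likelihood test, Benjamini-Hochberg). It was also among the probes called lower at 0.067 than at 0.021 µM. It stood at 2015 to 2423 CPM in DMSO, at 2158, 3258 and 4060 CPM in pools A, B and C at 0.021 µM, at 1528, 1862 and 2037 CPM at 0.067 µM, and at 1766, 2071 and 2123 CPM at 0.212 µM. Pools B and C at 0.021 µM were above every DMSO pool, and 2 of 3 pools at 0.067 µM were below every one. A second probe of its gene identifier, Dapma7bEVm010078_97545, had log2 fold changes of -0.18, 0.05 and 0.20 at the 3 levels.

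The onset was followed through the 60 probes called at 0.669 µM. The lowest concentration with a call was 0.669 µM for 57 of them, 0.212 µM for 2 and 0.021 µM for 1. Of the 2 at 0.212 µM, Dapma7bEVm001964_97694, was higher there and lower at 0.669 µM. The 40 probes that were higher at 0.669 µM had a median log2 fold change of 0.05 at 0.021 µM, 0.08 at 0.067 µM, 0.08 at 0.212 µM and 0.66 at 0.669 µM. The 20 lower ones had medians of -0.06, 0.01, 0.03 and -0.48 at the same concentrations. Over all 1424 probes tested the median lay between -0.01 and 0.00 at these levels. The medians at 0.669 µM follow from the choice of the probes, and all of these values use the same DMSO pools.

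Against the fexofenadine pools of the same level code, which share no pool with the choice of these probes, the 39 higher probes tested there had median log2 differences of 0.11, 0.12 and 0.02 at the 3 low levels, in order of concentration. The 20 lower probes had -0.12, -0.01 and 0.03. Over the 1420 probes tested in both fits the medians were 0.02, -0.01 and 0.00. Averaged over the 3 levels, cis-nonachlordane and fexofenadine differed at 0 of 1440 probes by edgeR's quasi-likelihood test (134 at an unadjusted p under 0.05, smallest adjusted p 0.0879 with Benjamini-Hochberg adjustment), and at 6 by DESeq2.

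**Figure D5:**
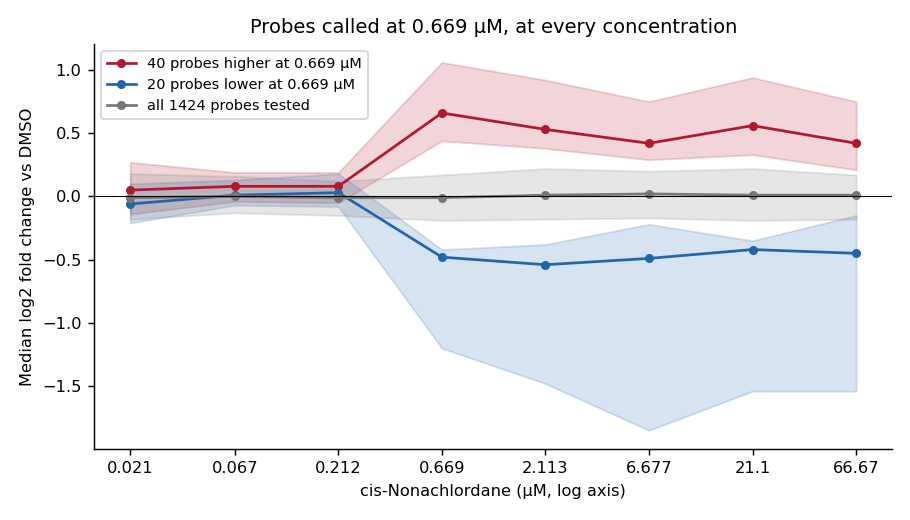
Median log2 fold change against DMSO (y axis) at each cis-nonachlordane concentration (x axis, µM, log scale) of the 40 probes called higher and the 20 called lower at 0.669 µM and of all 1424 probes tested; bands span the quartiles over probes. The called probes were chosen at 0.669 µM, and both of their medians lie between -0.06 and 0.08 at the 3 lowest concentrations.

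Neighbouring concentrations were also compared directly, in the fit that also held the DMSO pools. At 0.669 µM 17 probes were higher and 15 lower than at 0.212 µM, 2.25% of those tested. Of these 32 probes, 28 had log2 fold changes against DMSO of opposite sign at 0.212 and 0.669 µM. The choice of the probes favours opposite signs, because they were called on the difference between these same pools. Both signs were also taken against the same DMSO pools. The share of opposite signs over all probes tested is not given, so no reversal of direction is read from this count. Calls at 0.669 µM against DMSO covered 23 of the 32. Against the mean of the 3 low levels 40 were higher and 25 lower, 4.56% of those tested. Both use the 0.669 µM pools, and 29 probes were called in both, 29 of 32 and 29 of 65. Without letter C these counts were 8 and 16, without letter B 13 and 23, and without letter A 19 and 47.

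Of the 60 probes, 44 were also called at 2.113 µM in the same direction. Over all 1424 probes tested, 106 (7.44%) were called at 2.113 µM in either direction. Both levels were compared with the same 6 DMSO pools, in the same fit. The 10 of the 44 with the largest change at 0.669 µM included both probes called at 0.212 µM. Dapma7bEVm021235_97456 stood at 4.30 to 27.8 CPM in DMSO, at 22.1, 35.4 and 11.7 CPM in pools A, B and C at 0.021 µM, at 24.0, 60.3 and 22.6 CPM at 0.067 µM, at 55.4, 34.8 and 40.8 CPM at 0.212 µM, and at 110, 86.1 and 54.9 CPM at 0.669 µM. All 3 pools at 0.212 µM were above every DMSO pool of this exposure, but the log2 fold change of 1.36 ± 0.68 was not called. With CPM scaled over all libraries, these 3 pools stood at 33.5, 38.4 and 52.2 CPM. The 30 DMSO pools of the other 5 exposures ranged from 1.65 to 85.8 CPM, so all 3 lay inside that range. The lowest and the highest of the 6 DMSO pools of this exposure held 2 and 17 counts of this probe.

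Dapma7bEVm004723_96665 stood at 0 to 15.6 CPM in DMSO, at 12.9, 1.69 and 10 CPM in pools A, B and C at 0.021 µM, at 17.98, 6.46 and 15.0 CPM at 0.067 µM, at 23.7, 13.6 and 29.1 CPM at 0.212 µM, and at 37.8, 31.0 and 47.8 CPM at 0.669 µM. Pools A and C at 0.212 µM were above every DMSO pool and pool B was not. The log2 fold changes at these 4 levels were -0.16 ± 0.53, 0.54 ± 0.50, 1.26 ± 0.46 and 2.07 ± 0.41, and the call came at 0.669 µM. The highest count of this probe in the low pools was 15.

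Dapma7bEVm012412_96653 stood at 304 to 684 CPM in DMSO, at 411, 310 and 428 CPM in pools A, B and C at 0.021 µM, at 885, 454 and 483 CPM at 0.067 µM, at 1012, 478 and 1009 CPM at 0.212 µM, and at 1538, 933 and 1092 CPM at 0.669 µM. Pools A and C at 0.212 µM were above DMSO and pool B was within its range. The log2 fold change at 0.212 µM was 0.77 ± 0.27 and was not called.

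Dapma7bEVm018305_95923 and Dapma7bEVm021841_97041 were too shallow at the low levels to follow. The first had 0 to 6 counts and the second 4 to 12 counts per low-concentration pool. At 0.669 µM they stood at 14.0 ± 2.56 and 47.2 ± 23.0 CPM (SD, n = 3), against 1.13 ± 2.09 and 10.9 ± 7.64 CPM in DMSO (n = 6).

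Among the probes lowered from 0.669 µM up, Dapma7bEVm011534_97824 and Dapma7bEVm014955_97425 showed no called change below that level. Dapma7bEVm011534_97824 stood at 124 to 238 CPM in DMSO, at 282, 113 and 138 CPM in pools A, B and C at 0.021 µM, at 172, 140 and 179 CPM at 0.067 µM, at 174, 211 and 322 CPM at 0.212 µM, and at 36.5, 22.6 and 12.4 CPM at 0.669 µM. The low pools overlapped the DMSO pools at each level and the pools at 0.669 µM did not. The step between 0.669 and 0.212 µM was -3.26 ± 0.45 on the log2 scale (Benjamini-Hochberg adjusted p = 8.76e-05, edgeR quasi-likelihood test).

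Dapma7bEVm014955_97425 had log2 fold changes of -0.38 ± 0.28, 0.34 ± 0.27 and -0.30 ± 0.28 at the 3 low levels and -2.16 ± 0.31 at 0.669 µM. The low values changed sign between levels, and none was called.

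Dapma7bEVm027876_96409 was, like Dapma7bEVm001964_97694, high at 0.212 µM and low at 0.669 µM by value. It stood at 107 to 226 CPM in DMSO, at 231, 130 and 117 CPM in pools A, B and C at 0.021 µM, at 170, 258 and 188 CPM at 0.067 µM, at 287, 252 and 268 CPM at 0.212 µM, and at 52.9, 57.9 and 69.1 CPM at 0.669 µM. All 3 pools at 0.212 µM were above every DMSO pool, and all 3 at 0.669 µM below every one. The rise at 0.212 µM, with a log2 fold change of 0.70 ± 0.22, was not called (Benjamini-Hochberg adjusted p = 0.691, edgeR quasi-likelihood test), and the step between 0.669 and 0.212 µM was -2.17 ± 0.27 (adjusted p = 1.97e-05 in the same test).

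The 5 probes with the largest called difference between 0.669 µM and the mean of the 3 low levels were Dapma7bEVm019947_97721, Dapma7bEVm011534_97824, Dapma7bEVm001964_97694, Dapma7bEVm001285_98069 and Dapma7bEVm012026_96143. Dapma7bEVm019947_97721 stood at 57.9, 102 and 47.8 CPM in pools A, B and C at 0.669 µM, against 0 to 15.8 CPM in the 9 low pools. The pools at 0.669 µM were all higher, by a log2 difference of 3.48 ± 0.81. In DMSO it had 0 counts in 4 pools, 3 in CON C and 16 in XtraC C. Dapma7bEVm012026_96143 stood at 37.8, 28.2 and 707 CPM at 0.669 µM, against 34.0 to 60.6 CPM in the 9 low pools, so its difference of 2.54 ± 0.49 rests on pool C alone.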

How the data were processed

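The 9 libraries at the 3 lowest cis-nonachlordane concentrations and their references belong to a TempO-Seq series of 335 libraries, for which 5 whole Daphnia magna were pooled after 24 h of exposure, per the labels' protocols. The authors deposited raw counts per probe for all libraries, in whole numbers and unscaled, per the file headers and values. A log2 table per chemical was deposited as well; checked against the counts, 100% of the values used equalled log2(count + 1) within 1e-04, with no scaling for library total. bcl2fastq was used, per the submitters' processing notes; the program that assigned reads to probes is not given in the sources used here. Concentrations come from the concentration line of these tables. Columns matched to no sample numbered 0.

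Counts of the 24 cis-nonachlordane pools (8 levels) and 6 DMSO pools were fitted together in edgeR 4.0.16 (R 4.3.3) with TMM factors, filterByExpr (1424 of 2378 probes kept) and its quasi-likelihood test, adjusted by Benjamini-Hochberg over all probes tested at 0.05. The joint fit lets all levels share 1 estimate of the spread. Standard errors were derived from each test's p-value. A fit with the 24 fexofenadine pools (1440 probes) gave the comparisons between the chemicals. DESeq2 1.42.0, limma 3.58.1 on the deposited log2 values, other filters, scalings and DMSO sets, the replicate letter in the model and leaving out each letter or DMSO pool were tried as alternatives. Between 0.067 µM and DMSO the deviations of same-letter pools correlated at 0.212, 0.48 and 0.427 (A, B and C). The labels do not say that the letters pair pools, and the main tests did not use them as pairs. With the letter as a block 0 probes were called at 0.067 µM as well. The code was tested on simulated data. Library totals of 118094 to 1171681 over the series set the counting precision, and counts are ligated reads.

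Probes named are those called at the low levels (13), the 10 with the largest change at 0.669 µM called there and at 2.113 µM in the same direction, the 5 with the largest called difference between 0.669 µM and the low levels, and 4 other probes of the same gene identifiers. A rule for the probes differing most from fexofenadine gave 0. The levels, probes and lists were chosen with earlier results of these data known. Figures were drawn with matplotlib 3.10.9. Probe sequences and gene names are not used here.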

Additional observations from a re-analysis of the deposited data

Results flagged for a closer look

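In 4 of 33 sets of 6 DMSO values looked at, 1 pool stood far from the other 5 by Dixon's ratio at the 95% level. Chance gives about 1 in 20 for normally distributed values, which need not hold for sets with few or 0 counts. The DMSO pool XtraC C had 17.5 CPM of Dapma7bEVm001285_98069, where the other 5 had 10.4 to 12.9, below all 3 pools at 0.212 µM. XtraC A had 5.21 CPM of Dapma7bEVm018305_95923, on 3 counts, and 26.0 CPM of Dapma7bEVm021841_97041, where the other 5 had 5.85 to 10.2. XtraC C had 31.2 CPM of Dapma7bEVm019947_97721, where 4 of the others had 0 counts and CON C had 10.7 CPM. This pool is above all 9 low-concentration pools of that probe, so its lower values there are set against a DMSO group that spans 0 to 31.2 CPM.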

How the results depend on the processing

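With 3 pools a level, 412739 to 639531 counts per low library and a few counts per pool in several probes, depth and pool number limit what is detectable. At 0.021 µM, against 10 called probes, DESeq2 gave 25, the fit of both chemicals 19, and 0 were called without the filter on low counts, with the 3 lowest levels alone in the fit, against CON or XtraC pools alone, or by limma (107 to 213 at an unadjusted p under 0.05); leaving out pools gave 0 to 9. At 0.212 µM, against 2, the 3 lowest levels alone, both chemicals and limma gave 1, CON or XtraC pools alone 0, and leave-outs 0 to 1. The joint test of 3 levels, against 9, gave 1 without the filter or with the lowest levels alone, 24 by DESeq2, 26 with both chemicals, 0 against CON or XtraC pools alone or by limma, and 0 to 14 in leave-outs. For 0.067 against 0.021 µM, against 8, no filter or a fit of only the pools from 0.021 to 0.669 µM gave 0, DESeq2 40 and leave-outs 0 to 24. For 0.212 against 0.021 µM, against 7, the same settings gave 0, 36 and 0 to 22. For 0.669 against 0.212 µM, against 32, that smaller fit gave 21 and leave-outs 8 to 19; against the mean of the low levels, 65 became 33 and 16 to 47. Against fexofenadine DESeq2 called 6 in place of 0, and leave-outs 0 to 0. Calls at 0.067 µM, for the mean of the 3 levels and for 0.212 against 0.067 µM were 0 under every alternative run. Causes of these changes were not tested, beyond the smaller number of pools where pools were left out. The unscaled table used by limma moved the median of all probes to 0.19 at 0.021 µM and -0.12 at 0.212 µM on the log2 scale.

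The replicate letters were not taken to pair the samples in the main tests. Between 0.067 µM and DMSO all 3 letters correlated over 0.1, and in no other comparison among DMSO and the 3 low levels did they. Over all 18 correlations of deviations between same-letter pools 9 exceeded 0.1 (mean 0.0907, range -0.422 to 0.48), and 7 of 12 sets of deviations were closest to their own letter, a hint from the data and not from the design. With the letter as a replicate block, 19 probes were called at 0.021 µM, 2 at 0.212 µM, 45 in the joint test, 69 for 0.669 against 0.212 µM, 74 for 0.067 against 0.021 µM, 53 for 0.212 against 0.021 µM, 96 for 0.669 µM against the low levels and 2 against fexofenadine. For single probes, 1696 values kept direction and side of the threshold, or were uncalled and moved by less than the standard error. A call was lost in 137 and gained in 7, and 57 uncalled values moved further. Of the values called in either run 0 reversed, and uncalled values were not checked for a change of sign.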

Other observations

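The other probes called among the low levels were chosen after their values were seen. Dapma7bEVm008161_96486 stood at 3.99, 19.4 and 7.52 CPM in pools A, B and C at 0.067 µM, against 22.1, 47.2 and 33.3 CPM at 0.021 µM, with 12.9 to 22.6 CPM in DMSO; the log2 difference was -1.74 ± 0.41. Dapma7bEVm004291_97494 was higher than at 0.021 µM at both 0.067 and 0.212 µM, by log2 differences of 0.86 ± 0.20 and 0.87 ± 0.20, while against DMSO it had -0.53, 0.33 and 0.34 at the 3 levels in order of concentration and was not called. Dapma7bEVm004590_96990 was lower at 0.067 than at 0.021 µM (-0.68 ± 0.15). Dapma7bEVm004878_95832 was lower at 0.212 than at 0.021 µM (-0.81 ± 0.18).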
